A study of Mus musculus with 4 samples.

Results

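The 3′ ends of Svs4, Svs6 and Prol1, secretory transcripts of glands, were examined in a map of mouse poly(A) sites. They were selected on their read counts, as windows of the mm9 genome build around abundant 3′ ends that took a smaller share of the reads with the CU5T45 capture oligo than with oligo(dT)10-25. All 3 of 3 windows were found, out of 16684 clusters of 3′ end positions with 30 or more reads in the whole series. Because that difference between the oligos chose the windows, it is given as a description, with no test. In each window the share of reads was lower with CU5T45.

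The 3′ ends were mapped by 3'READS, in which poly(A)-containing RNA fragments are captured on beads and sequenced to locate the cleavage position. The RNA was a purchased blend of 11 mouse cell lines. In 1 library the fragments were captured with CU5T45, an oligo with 5 U and 45 T; they were washed in low salt with formamide and freed by RNase H digestion. In the other library they were captured on oligo(dT)10-25 beads, those of ordinary poly(A) selection. The labels do not name the lines. CLIP-seq of CstF64, a subunit of the cleavage stimulation factor, used C2C12 cells in proliferation, which are mouse myoblasts, and has 2 replicates. No genotype, strain or treatment was given for any sample. Depth was 6738355 reads, at 236029 positions, with CU5T45 and 3482826 reads, at 180853 positions, with oligo(dT)10-25. With 1 library per oligo, each 95% interval below covers counting error only and compares these libraries, not the oligos as conditions, and PCR copies make it too narrow.

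Seminal vesicle secretory proteins are androgen-dependent proteins that the seminal vesicle adds in large amounts to semen, and Svs4 and Svs6 encode members of this group within one gene cluster. Prol1, also called Muc10, encodes a proline-rich mucin known from the secretion of the mouse submandibular salivary gland. Their messenger RNAs end, like most, where the cleavage machinery cuts downstream of a poly(A) signal, most often AATAAA in the DNA spelling. CstF64 binds U- and GU-rich RNA just beyond the cut, and a poly(A) tail is then added. Both oligos capture RNA through that tail. The labels describe RNA of cell lines, and how transcripts known from glands came to be abundant in it was not tested.

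The annotated 3′ ends of the members are shown because every result below lies at or near them. They are the last 30 bases of the GENCODE vM21 transcripts (GRCm38), in the direction of the RNA, with the poly(A) signal in capitals. Svs5, a seminal vesicle neighbour with a different ratio between the oligos, is added for comparison.
Svs4: cAATAAAgagataacaatttgcatcattaa
Svs6: cAATAAAaagacaacattttgcatcgttaa
Prol1: aaacaAATAAAaataatttgagcaaggaaa
Svs5: ttcAATAAAaagatactattctgcatcatt
Each holds AATAAA on the transcript strand, the only motif searched, as do 35.5% of the 58797 protein-coding transcripts of that annotation in their last 30 bases. That share includes transcripts whose annotated end is incomplete. The annotated end of Svs3b, a neighbour described below, was searched too and held no AATAAA in its last 30 bases. The signal ended 23 bases before the transcript end in Svs4 and Svs6, 21 bases before it in Svs5 and 19 bases before it in Prol1. In their last 72 bases, Svs4 and Svs6 aligned with 70.5% identity, Svs6 and Svs5 with 69.3% and Svs4 and Svs5 with 67.1%. For Svs4 and Prol1 it was 54.3%. Svs6 and Svs5 share an exact run of 33 bases within their transcripts, while the longest run shared by Svs4 and Svs6 is 13 bases. The sources used here do not say how reads that fit more than 1 place were treated.

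Since the files use mm9 and the annotation GRCm38, gene positions were not carried over, and only spacings were compared. The most used positions of Svs4 and Svs6 lay 42501 nt apart in the data, and the annotated 3′ ends of the genes lie 42501 nt apart, a difference of 0 nt. For Prol1, which has no such partner in the set, 7 of the 14 other sites with 100 or more reads within 1000 kb were spaced from it like an annotated 3′ end on the same strand, within 10 nt. Around Svs4 and Svs6 over the same reach it was 10 of 36 and 10 of 37 sites.

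The Svs4 window, on the minus strand of chromosome 2 from 164101000 to 164106000, had 11000 reads in the CU5T45 library and 22230 in the oligo(dT)10-25 library. These are 1632 counts per 1e6 reads (CPM) with CU5T45 and 6383 CPM with oligo(dT)10-25, or 0.163% (exact interval 0.160 to 0.166) and 0.638% (0.630 to 0.647) of the reads. The share was 3.91-fold lower with CU5T45 (3.82 to 4.00). By reads, the Svs4 site ranked 67 among nuclear sites of the CU5T45 library and 11 among those of the oligo(dT)10-25 library.

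The Svs6 window, on the plus strand of chromosome 2 from 164141000 to 164145000, had 6073 reads with CU5T45 and 9365 with oligo(dT)10-25. The levels were 901 CPM with CU5T45 and 2689 CPM with oligo(dT)10-25, 2.98-fold lower with CU5T45 (2.89 to 3.08). This was the smallest difference of the 3 windows, and its interval did not overlap that of Svs4. The site ranked 137 with CU5T45 and 30 with oligo(dT)10-25.

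The Prol1 window, on the plus strand of chromosome 5 from 88745000 to 88758500, had 2204 reads with CU5T45 and 35014 with oligo(dT)10-25. The levels were 327 CPM with CU5T45 and 10053 CPM with oligo(dT)10-25, 30.7-fold lower with CU5T45 (29.4 to 32.1). Prol1 alone took 0.0327% of the CU5T45 reads (0.0314 to 0.0341), against 1.01% of the oligo(dT)10-25 reads (0.995 to 1.02) in the same RNA mix. The site ranked 422 with CU5T45 and 7 with oligo(dT)10-25. Together the windows took 0.286% of all reads with CU5T45 and 1.91% with oligo(dT)10-25. No window had a read on its opposite strand in either library.

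**Figure D1:**
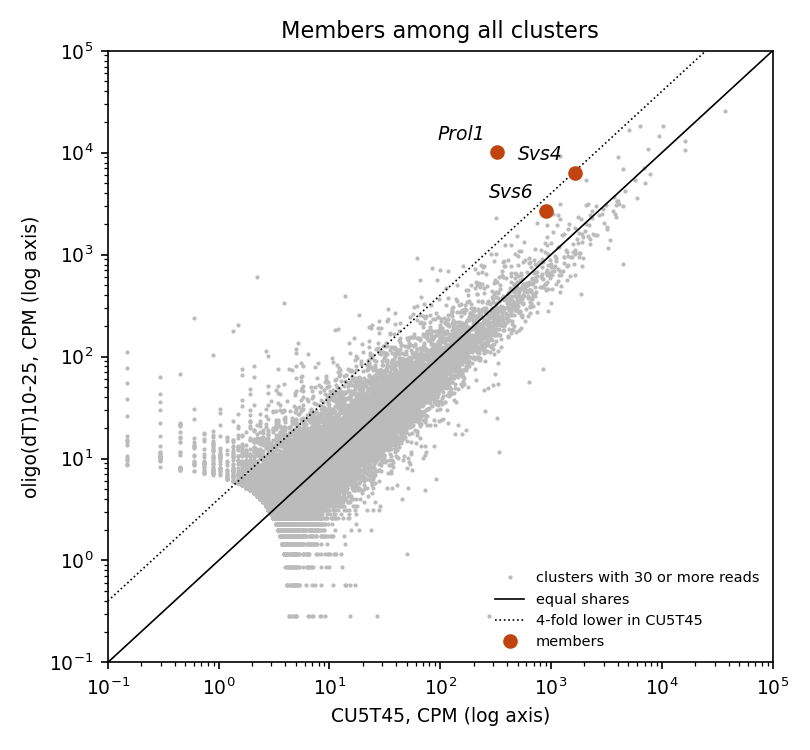
Each grey point is a cluster of 3′ end positions with 30 or more reads and a read in both libraries, with its CU5T45 level on the x axis and its oligo(dT)10-25 level on the y axis, both in CPM on log axes; red points are the member windows, the solid line marks equal shares and the dotted line a 4-fold lower CU5T45 share. Prol1, at 327 CPM with CU5T45 and 10053 CPM with oligo(dT)10-25, lies far above the dotted line, and Svs4 and Svs6 lie just below it.

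Of the members, Prol1 stood furthest from the other sites. A 4-fold lower share in CU5T45 with an interval below 1 was found at 4.51% of the 16684 clusters, and 1 of the 3 members, Prol1, reached it. A 2-fold lower share was found at 14.1% of those clusters and at 3 of the 3 members, which were chosen for it. The median ratio of the CU5T45 share to the oligo(dT)10-25 share was 1.08 over the 16684 clusters and 1.26 over the 114 nuclear clusters with 10000 or more reads. Among these 114 abundant clusters, 2.63% were 4-fold lower and 10.5% were 2-fold lower. Ordered from the lowest ratio, Prol1 was number 1, Svs4 number 4 and Svs6 number 5. Numbers 2 and 3 were sites on chromosome 3 at 14872538, plus strand, 7.61-fold lower (7.42 to 7.79), and on chromosome 6 at 132388170, minus strand, 7.17-fold lower (6.84 to 7.53). Number 6, on chromosome 5 at 90905627, plus strand, was just above Svs6 at a ratio of 0.351 against 0.335 for Svs6. The other sites among the 12 lowest lay between 2.12-fold and 2.78-fold lower.

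In every window, nearly all reads ended at 1 position, which was the same nucleotide with both oligos. Single positions are exact to within 1 nt, because the numbering of the files is not stated. For Svs6, position 164144188 held 99.8% of the reads with CU5T45 (99.7 to 99.9; 6063 of 6073) and 99.8% with oligo(dT)10-25 (99.6 to 99.9; 9343 of 9365). Within its cluster, the measure available for all 114 abundant clusters, the Svs6 position held 99.90% with CU5T45 and 99.84% with oligo(dT)10-25, number 1 of the 114 in each library. The medians of the 114 were 77.5% with CU5T45 and 79.7% with oligo(dT)10-25. For Svs4, position 164101687 held 95.02% with CU5T45 (94.6 to 95.4) and 96.6% with oligo(dT)10-25 (96.4 to 96.9). For Prol1, position 88757838 held 94.6% with CU5T45 (93.5 to 95.5) and 96.0% with oligo(dT)10-25 (95.7 to 96.2). The intervals of the libraries overlapped at Svs6, while at Svs4 and Prol1 the main position held slightly less of the CU5T45 reads.

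**Figure D2:**
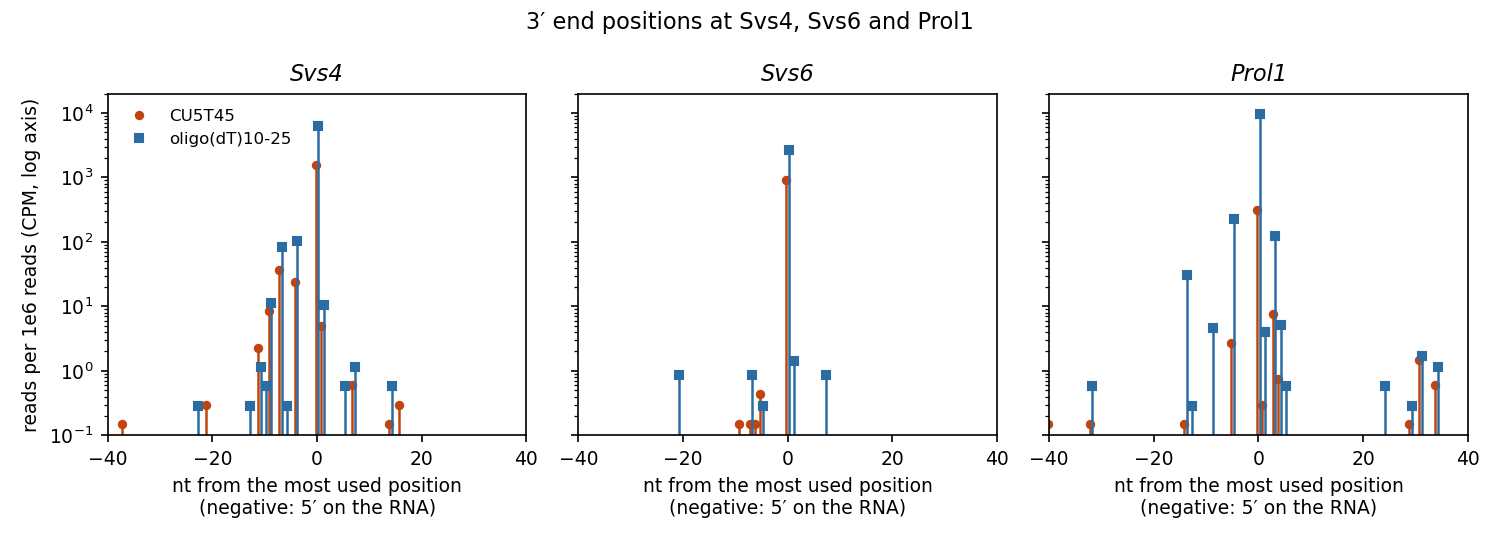
Level of every 3′ end position within 40 nt of the most used one, in CPM on a log axis, against the distance from it in nt along the RNA; circles are CU5T45 and squares oligo(dT)10-25, drawn 0.5 nt apart. Svs6 has 1 tall position, with 6063 reads with CU5T45 and 9343 with oligo(dT)10-25, while Svs4 and Prol1 have minor positions on its sides.

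The minor positions did not all share the ratio of the main one. Positions with 30 or more reads numbered 5 at Svs4, 1 at Svs6 and 4 at Prol1. These positions carry most of the reads that chose the windows, so that they lie below a ratio of 1 is no result. How they differ among themselves is described next.

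At Svs4 the main position had 10452 reads with CU5T45 and 21480 with oligo(dT)10-25, a ratio of 0.252 (0.246 to 0.257). The position 4 nt upstream of it on the RNA had 162 and 356 reads, a ratio of 0.235 (0.194 to 0.284). Further upstream the ratio was higher. It was 0.435 (0.366 to 0.518) at 7 nt, with 245 reads with CU5T45 and 291 with oligo(dT)10-25. At 9 nt it was 0.755 (0.494 to 1.17), with 57 reads with CU5T45 and 39 with oligo(dT)10-25. The position 11 nt upstream, under 30 reads and picked after its values were seen, had 15 reads with CU5T45 and 4 with oligo(dT)10-25. The position 1 nt downstream, with 33 reads with CU5T45 and 36 with oligo(dT)10-25, had a ratio of 0.474 (0.286 to 0.782).

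At Prol1 the lowest ratios lay upstream and the higher ones downstream. The main position had 2084 reads with CU5T45 and 33597 with oligo(dT)10-25, a ratio of 0.0321 (0.0307 to 0.0335). The position 5 nt upstream had 18 reads with CU5T45 and 798 with oligo(dT)10-25, 85.8-fold lower with CU5T45 (53.9 to 145.5). The position 14 nt upstream had 1 CU5T45 read and 105 oligo(dT)10-25 reads. The position 9 nt upstream, with fewer than 30 reads and picked after its values were seen, had 0 and 16. All positions 1 to 50 nt upstream, grouped after the values were seen, had 22 reads with CU5T45 and 923 with oligo(dT)10-25. Their ratio was 0.0123 (0.00768 to 0.0188). Those 1 to 14 nt downstream, grouped in the same way, had 59 and 468 reads, a ratio of 0.0652 (0.0488 to 0.0856). The position 3 nt downstream had 52 reads with CU5T45 and 434 with oligo(dT)10-25, 16.1-fold lower with CU5T45 (12.1 to 22.0). A small group of positions 15 to 50 nt downstream, looked at after the values were seen, had 15 reads with CU5T45 and 13 with oligo(dT)10-25 in all, a ratio of 0.596 (0.265 to 1.36). The interval of that group did not reach the ratio of the main position 15 to 50 nt away.

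**Figure D3:**
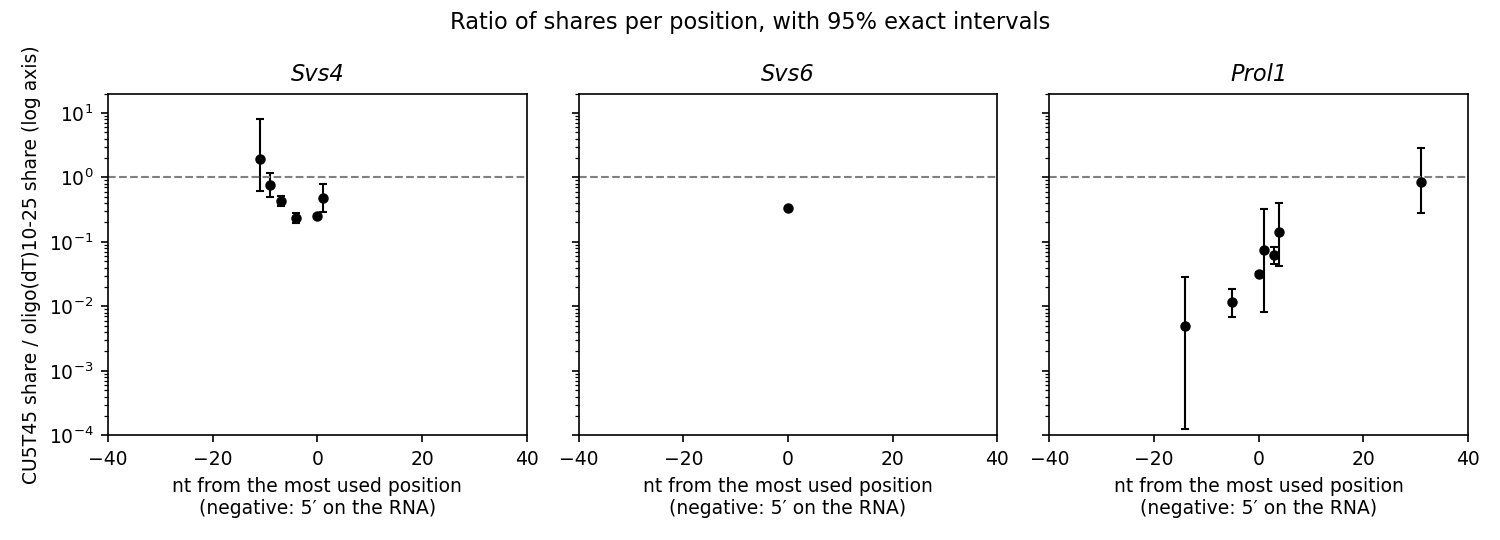
Ratio of the CU5T45 share to the oligo(dT)10-25 share, on a log axis, for positions with 10 or more reads in all and a read in both libraries, against the distance in nt from the most used position along the RNA; bars are 95% exact intervals and the dashed line is a ratio of 1. At Svs4 the ratio is 0.235 at 4 nt upstream, beside 0.252 at the main position, and 0.755 at 9 nt upstream; at Prol1 it is 0.0117 at 5 nt upstream, beside 0.0321 at the main position.

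A few reads of each window ended further than 50 nt from the main position, and at Prol1 and Svs4 these did not show the lower CU5T45 share of the main site. This split was chosen after the values were seen. At Prol1 they numbered 24 reads with CU5T45 and 13 with oligo(dT)10-25, a ratio of 0.954 (0.467 to 2.04), whose interval lay wholly above that of the main position. At Svs4 they numbered 26 and 11 reads, a ratio of 1.22 (0.583 to 2.74), also above that of its main position. At Svs6, with 4 reads with CU5T45 and 7 with oligo(dT)10-25, the ratio of 0.295 (0.0634 to 1.16) had an interval that included both 1 and the value of the main site, so these few reads could not show a difference. Such reads made up 1.09% of the Prol1 reads with CU5T45 (0.699 to 1.62) and 0.0371% with oligo(dT)10-25 (0.0198 to 0.0635).

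By distance from the main position, most of these distant ends fell inside exons. The placement takes the main position as the annotated 3′ end and assumes equal distances in both builds. At Svs4, 27 of 28 distant positions fell in exons, 23 of them in exon 2 of 3, whose bases lie 1082 to 1386 nt upstream of the 3′ end, and 0 in an intron. One Svs4 read of the CU5T45 library ended 2258 nt upstream, at the last base of exon 1. At Prol1, 28 of 31 distant positions fell in exons, 24 of them in the long exon 3, and 2 in an intron. At Svs6 it was 8 of 9, with 1 in an intron. The exons hold 731 bases at Svs4, 535 at Svs6 and 1163 at Prol1. Their farthest bases lie 2507, 1702 and 11502 nt upstream of the 3′ end. Most distant positions had a single read: at Svs4 14 of 18 with CU5T45 and 11 of 11 with oligo(dT)10-25. At Svs6 it was 4 of 4 and 5 of 6, and at Prol1 18 of 20 and 13 of 13.

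The neighbours of Svs4 and Svs6 did not share one ratio. Within 100 kb of the Svs4 window there were 10 other sites with 30 or more reads, and 7 of these, Svs6 among them, were spaced from Svs4 like an annotated 3′ end on the same strand, to within 5 nt. The names below rest on that spacing, compared after the values were seen. Svs5, another seminal vesicle secretory protein gene, lies 15.9 kb beyond Svs6 on the same strand. It had 4578 reads with CU5T45 and 1791 with oligo(dT)10-25, 1.32 times as high with CU5T45 (1.25 to 1.40), while Svs6 was 2.98-fold lower. Svs3a, on the plus strand between Svs4 and Svs6, had 154 reads with CU5T45 and 86 with oligo(dT)10-25, a ratio of 0.926 (0.706 to 1.22). Svs3b, 21.6 kb from Svs4 on its strand, had 26 reads with CU5T45 and 85 with oligo(dT)10-25, 6.33-fold lower (4.04 to 10.2). The site spaced like Svs2 had 41 and 27 reads, a ratio of 0.785 (0.471 to 1.33). A larger cluster lay just upstream of the Svs2 site on the RNA, at 164061798 against 164061661, both on the minus strand. It matched no annotated end and had 2074 reads with CU5T45 and 703 with oligo(dT)10-25, a ratio of 1.52 (1.40 to 1.66). At 164015228 on the same strand, a site that also matched no annotated end had 7468 reads with CU5T45 and 1804 with oligo(dT)10-25, a ratio of 2.14 (2.03 to 2.25). The outermost matched sites, spaced like genes of the WAP domain family, which includes protease inhibitors, had few reads. Wfdc15b had 29 reads with CU5T45 and 46 with oligo(dT)10-25, a ratio of 0.326 (0.197 to 0.530). Slpi, the secretory leukocyte protease inhibitor, had 36 reads with CU5T45 and 59 with oligo(dT)10-25, a ratio of 0.315 (0.202 to 0.485). The last unmatched site, at 164003351, had 28 reads with CU5T45 and 18 with oligo(dT)10-25, and its ratio of 0.804 had an interval that included 1 (0.429 to 1.54).

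**Figure D4:**
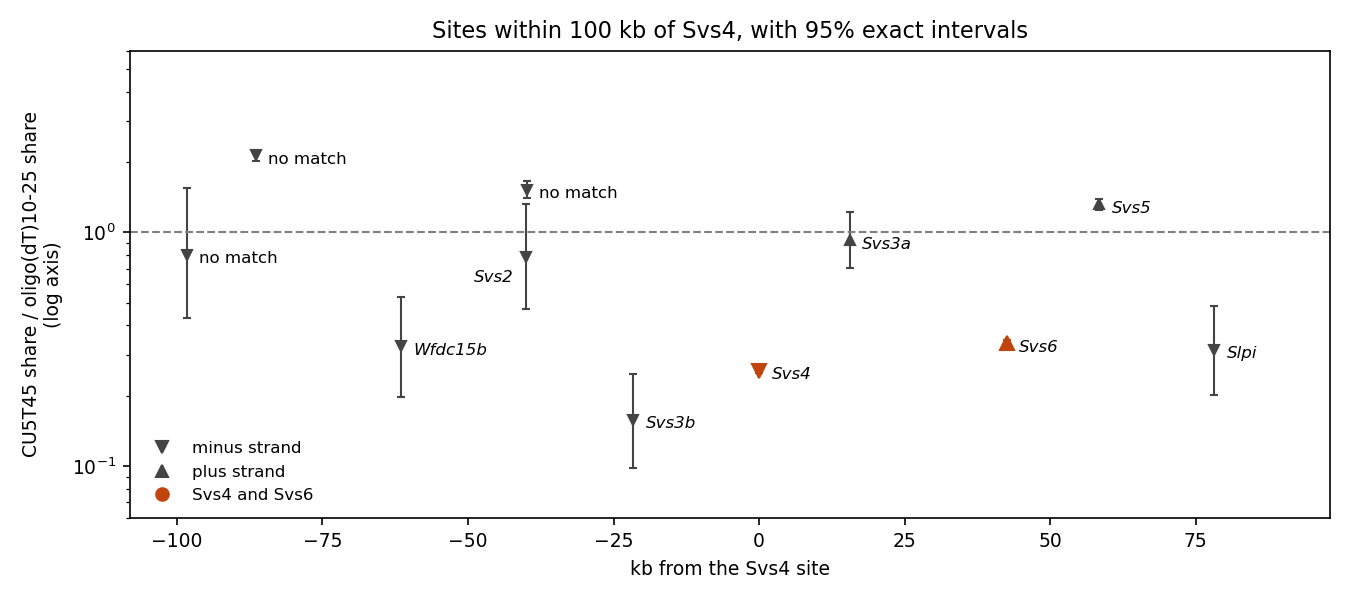
Ratio of the CU5T45 share to the oligo(dT)10-25 share, on a log axis, at the sites with 30 or more reads within 100 kb of the Svs4 window, against the distance in kb from the Svs4 site; bars are 95% exact intervals, triangles give the strand, red marks Svs4 and Svs6, and names are those of annotated ends with the same spacing. Wfdc15b, Svs3b, Svs4, Svs6 and Slpi have intervals below the dashed line of equal shares, while Svs5, at 1.32, and unmatched sites at 1.52 and 2.14 have intervals above it.

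Near Prol1, the only other site with 30 or more reads within 100 kb was at 88720379 on the minus strand, with 57 reads with CU5T45 and 9 with oligo(dT)10-25 and no matching annotated end. Further off, 320.3 kb upstream on the same strand, lay a site spaced like Smr3a, which encodes an androgen-regulated protein of the submaxillary gland. It had 13982 reads with CU5T45 and 18830 with oligo(dT)10-25, or 2075 CPM with CU5T45 and 5407 CPM with oligo(dT)10-25, 2.61-fold lower with CU5T45 (2.55 to 2.66). The Prol1 cluster, which was chosen for its low ratio, was 31.0-fold lower (29.7 to 32.4).

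From a list of 12 gland secretion genes (Svs1, Svs2, Svs3a, Svs3b, Svs4, Svs5, Svs6, Pate4, Prol1, Smr2, Smr3a and Csn3), 8 had a site that could be placed by its window or its spacing, 3 of them the members. Of the other 5, Svs3b and Smr3a were at least 2-fold lower in CU5T45 and Svs5 was higher with an interval above 1. Svs2 and Svs3a had intervals that included 1. The median ratio of these 5 was 0.785, beside 1.08 over all 16684 clusters. This median is the ratio of the Svs2 site, which had only 41 reads with CU5T45. The larger unmatched cluster just upstream of that site had 2074 reads with CU5T45 and a ratio of 1.52 (1.40 to 1.66). It was not counted for Svs2. Whether it is an end of Svs2 was not tested, and the median depends on that placement. Sites were placed by spacing in the stretches around Svs4 and Prol1 alone. Svs1 and Pate4, on other chromosomes, were not analysed here, and within 1000 kb of Prol1 no site with 100 or more reads was spaced like Smr2 or Csn3.

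CstF64 CLIP gave no alignment at the members. In replicate 1, 0 of 1101047 distinct alignments had their midpoint in any of the windows, on either strand, and in replicate 2 it was 0 of 1352122. The exact Poisson 95% interval of a count of 0 reaches 3.69 alignments per window and replicate. For scale, 3 alignments are 0.000272% of replicate 1 and 0.000222% of replicate 2. The nearest alignment on either strand lay 53.8 kb from the main position of Svs6, 96.3 kb from that of Svs4 and 94.6 kb from that of Prol1, in both replicates. Abundant sites without alignments were common. Among the 114 abundant clusters, 59.6% in replicate 1 and 58.8% in replicate 2 had no alignment on their strand within 100 nt. That is a narrower stretch than the windows of the members, which were empty throughout and on either strand, so the shares are not a like measure. CLIP was made in C2C12 cells and the 3′ ends in the mix of lines, and whether C2C12 cells express the members was not measured.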

How the data were processed

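The deposited read counts are whole numbers, with no normalization stated per the labels. Per the submitters' processing notes the authors used mm9, Bowtie and Novoalign; the sources used here do not give versions, roles, read filters or multi-mapping rules. Each 3'READS line is 1 position and strand, each CLIP line 1 distinct alignment. Windows came from the selection rule; members and lists were chosen with earlier results of these data known. Named items are the members, their positions with 30 or more reads, sites with 30 or more reads within 100 kb, and the 12 lowest of the nuclear clusters with 10000 or more reads; others are marked as chosen later. Positions of both libraries were chained at gaps of at most 24 nt. The ratio of shares is CU5T45 over oligo(dT)10-25, with exact conditional binomial 95% intervals; shares have Clopper-Pearson intervals. No p-value was computed, with 1 library per oligo. CLIP replicates shared 80.7% of the alignments of replicate 1, and were never averaged. The sources used here do not say whether they came from separate cultures. The ratio calculation was run on simulated counts with counting error only. That run does not cover PCR copies or differences between libraries. Tools were Python 3.11.15 with Biopython 1.88, scipy 1.17.1, numpy 2.4.6, matplotlib 3.10.9 and pandas 2.3.3. Spacings and transcript ends came from GENCODE vM21 (GRCm38), without converting coordinates. Alternatives changed the positions, window limits, totals, depth, counting, cluster rules, fold and CLIP placement.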

Additional observations from a re-analysis of the deposited data

How the results depend on the processing

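No paired analysis was possible because each oligo has 1 library and the result comes from no test. The ratios of Svs4, Svs6 and Prol1 stayed below 1 under each of 10 other settings. The windows were chosen for a low ratio and most settings keep the reads of the main position, so this is no independent check. With each position counted once the ratios were 0.926, 0.575 and 0.876, each with an interval that included 1. This counts a position with 1 read like the main one. Without the most used position they were 0.378, 0.235 and 0.0438. Divided by the median ratio of nuclear clusters, 1.08, they were 0.237, 0.310 and 0.0301, and with shares of nuclear reads Svs4 was 0.248. Using only positions over 50 nt from the main one, added after seeing the data, gave 1.22 at Svs4, on the other side of 1 with an interval that included it, 0.295 at Svs6 and 0.954 at Prol1. The share of the main position, pooled over the libraries, was 96.1% at Svs4 and 95.9% at Prol1. The background of 753 clusters 4-fold lower became 1806 of 28487 with 10 or more reads, 258 of 8652 with 100 or more, 2356 for 2-fold and 299 for 8-fold lower. CLIP counts were 0 under each of 6 alternatives, including without replicate 1 and without replicate 2. Depth limits the reads away from the main positions.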

Other observations

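The stretch of chromosome 5 around Prol1 held further sites with a low CU5T45 share, listed here as values and chosen after they were seen. On the plus strand, the site at 88640201, 117.6 kb upstream of Prol1, had 101 reads with CU5T45 and 476 with oligo(dT)10-25 and matched no annotated end by spacing. The site at 88343193, spaced like BC037156, had 164 reads with CU5T45 and 712 with oligo(dT)10-25. The site spaced like Cabs1 went the other way, with 1046 reads with CU5T45 and 310 with oligo(dT)10-25, a ratio of 1.74 (1.53 to 1.99). Intervals above 1 were also found at 87984065 (ratio 1.95), at 87984276 (1.48) and at the site spaced like Grsf1 (2.76). Besides Smr3a, intervals below 1 were also found at 88394654 (0.145), at 89088262 (0.668) and at the sites spaced like BC051076 (0.468), Ugt2a1 and Ugt2a2 (0.701) and Ambn (0.708). At 88949623 and 89191082 the interval included 1.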
